A study of Caenorhabditis elegans with 2 samples.

Results

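The cytosolic ribosomal protein genes of C. elegans encode the proteins of the ribosome that translates messenger RNA in the cytoplasm. They were taken as every protein-coding gene of the Ensembl WBcel235 annotation whose name begins with rpl-, rps- or rla- followed by a digit, which gave 81 of the 19973 nuclear protein-coding genes. Of these, 50 belong to the large subunit, including 3 rla genes, and 31 to the small subunit. The chromatin came from strain OP696, which carries unc-119(tm4063) III and the transgene wgIs696, and in which M03D4.4 is expressed with a C-terminal GFP-FLAG tag. M03D4.4 was studied as a transcription factor, and its tagged form was recovered, per the sample descriptions, with an anti-GFP antibody from sonicated chromatin of whole mixed-stage embryos, 2 hours after egg bleaching, of pooled sex. There is 1 group of 2 biological replicates. It is 1 transgenic line, and whole embryos do not show which cells a peak comes from. The values described are peaks called against a control: a relaxed list per replicate and for the pool, and a list of peaks that passed a test of reproducibility between replicates (IDR). A gene is called bound where an IDR peak had its summit in the promoter window, which reaches 1000 bp upstream and 500 bp into the gene from the annotated 5' end. No peak list for another tagged protein was analysed here, so occupancy by M03D4.4 itself and chromatin that is recovered whichever protein carries the tag cannot be told apart.

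A ribosome has a small subunit, which reads the messenger RNA, and a large subunit, which joins the amino acids and carries the stalk that recruits elongation factors. Its proteins are needed in matched amounts, and their genes are among the most strongly transcribed in growing cells. Many C. elegans messages are trans-spliced, which replaces the first transcribed bases with a spliced leader, so the annotated 5' end of a gene can lie downstream of the place where transcription starts.

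The first 3 sequences are shown as those of the 3 strongest peaks at these promoters, and the next 4, from weaker peaks, as examples that carry the same short words. Each sequence covers 75 bp on either side of the IDR summit and was read from the RefSeq WBcel235 genome (ce11), 5' to 3' in the direction of the named gene. Capitals mark 5 words on either strand. The first is ACCGTA, which reads TACGGT on the other strand. The second is CGTAGC, which reads GCTACG there. The third is ACACTC (on the other strand GAGTGT), the fourth CGCTAC (on the other strand GTAGCG) and the fifth GGCCTAA (on the other strand TTAGGCC). The second and the fourth overlap on opposite strands in CGTAGCG, and the first and the second overlap in ACCGTAGC. None of the stretches lies in an annotated exon or UTR.
rpl-3, chrIII:3867511-3867661, plus strand: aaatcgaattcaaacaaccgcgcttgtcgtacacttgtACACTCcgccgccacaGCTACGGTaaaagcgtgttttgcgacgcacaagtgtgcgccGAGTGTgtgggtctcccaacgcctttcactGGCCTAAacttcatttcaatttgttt
rpl-15, chrIV:654845-654995, minus strand: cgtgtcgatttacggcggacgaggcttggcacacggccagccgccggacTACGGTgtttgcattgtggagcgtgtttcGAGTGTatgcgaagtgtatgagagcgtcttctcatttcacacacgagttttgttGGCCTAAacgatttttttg
rpl-20, chrIV:4749990-4750140, minus strand: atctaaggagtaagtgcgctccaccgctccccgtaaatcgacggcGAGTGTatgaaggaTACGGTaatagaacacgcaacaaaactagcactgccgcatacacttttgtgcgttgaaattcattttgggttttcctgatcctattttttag
rps-14 (shared with rpl-36), chrIII:7179775-7179925, minus strand: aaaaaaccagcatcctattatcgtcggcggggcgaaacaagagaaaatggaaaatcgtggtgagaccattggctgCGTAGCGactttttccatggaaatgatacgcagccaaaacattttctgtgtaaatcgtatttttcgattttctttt
rpl-11.2, chrX:2242925-2243075, minus strand: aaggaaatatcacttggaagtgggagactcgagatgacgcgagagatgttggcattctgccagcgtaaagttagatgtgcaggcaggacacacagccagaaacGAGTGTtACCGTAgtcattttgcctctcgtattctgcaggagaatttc
rps-23, chrIV:12391256-12391406, minus strand: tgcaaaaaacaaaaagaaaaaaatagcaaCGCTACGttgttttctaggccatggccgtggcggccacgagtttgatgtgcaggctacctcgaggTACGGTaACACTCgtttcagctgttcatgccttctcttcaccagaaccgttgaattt
rps-27, chrV:104604-104754, minus strand: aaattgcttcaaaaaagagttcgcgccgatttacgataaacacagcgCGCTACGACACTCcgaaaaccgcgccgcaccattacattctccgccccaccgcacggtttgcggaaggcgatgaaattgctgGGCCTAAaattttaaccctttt
The last 3 stretches belong to peaks among the 10 strongest at these genes that hold none of the first 4 words within 50 bp of the summit.
rpl-35, chrIII:7854617-7854767, plus strand: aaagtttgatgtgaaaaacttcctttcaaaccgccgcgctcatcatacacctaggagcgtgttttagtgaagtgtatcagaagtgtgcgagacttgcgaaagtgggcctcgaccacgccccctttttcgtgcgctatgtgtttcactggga
rps-28, chrIV:1659181-1659331, plus strand: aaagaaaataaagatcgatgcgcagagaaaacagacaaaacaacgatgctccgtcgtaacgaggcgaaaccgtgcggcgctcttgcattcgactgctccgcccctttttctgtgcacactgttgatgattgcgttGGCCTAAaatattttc
rps-12, chrIII:5679043-5679193, plus strand: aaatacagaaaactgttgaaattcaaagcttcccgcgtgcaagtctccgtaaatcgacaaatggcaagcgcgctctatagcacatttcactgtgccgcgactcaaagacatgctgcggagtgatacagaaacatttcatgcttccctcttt

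Of the 81 ribosomal protein genes, 31 were bound, or 38.3% with an exact 95% interval of 27.7 to 49.7%, against 4.69% of all protein-coding genes, 936 of 19973. The interval is Clopper-Pearson's and covers counting error only, and genes that share a peak are not independent. With 1 group there is no contrast between samples, so shares are set beside the same share over all protein-coding genes, without a test. The 31 genes were covered by 30 distinct peaks, because 2 peaks each served a pair of ribosomal protein genes and rps-11 held 2 summits. In the small subunit 16 of 31 genes were bound, or 51.6% with an interval of 33.1 to 69.8%. In the large subunit it was 15 of 50, or 30% with an interval of 17.9 to 44.6%. The share was higher in the small subunit, but the intervals overlap and the difference was not tested. When each summit was given only to the gene with the nearest 5' end, the counts were 8 of 31 small and 10 of 50 large subunit genes.

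The strongest peak belonged to rpl-3, whose protein lies close to the catalytic centre of the large subunit. Its signal was 710.8 in replicate 1, 604.0 in replicate 2 and 1317 in the pool, with the summit 268 bp upstream of the 5' end, and it ranked 10 in the IDR list. Signal is the authors' own peak value, whose scaling is not given in the sources used here, and the pooled value was close to the sum of the replicates, with a median ratio of 1.00 over the member peaks. The next 3 peaks by signal also belonged to large subunit genes. At rpl-15 the signal was 519.5 in replicate 1 and 422.5 in replicate 2, 344 bp upstream. At rpl-20 it was 384.0 and 327.9, 287 bp upstream. At rpl-35, whose protein borders the exit of the peptide tunnel, it was 326.5 and 291.0, 442 bp upstream. These 4 were the ribosomal protein peaks among the 100 strongest IDR peaks, and replicate 1 was the higher at each of them.

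The strongest small subunit peak was at rps-28, with 294.5 in replicate 1 and 269.8 in replicate 2, 435 bp upstream. At rps-12 the signal was 300.2 and 225.9, 180 bp upstream, and the snoRNA gene F54E7.10 lay within 500 bp. The rps-19 summit stood at 249.5 and 197.7, 281 bp upstream, and mutations of the human counterpart of this gene cause Diamond-Blackfan anaemia. For rps-1 the values were 218.1 and 208.6, 253 bp upstream, and for rps-20, whose protein belongs to the head of the subunit, they were 213.4 and 199.0, 233 bp upstream. These 5 came next after rpl-35 among the member peaks. Ribosomal protein genes held 9 of the 200 strongest IDR peaks, or 4.5%, and 30 of all 1423 nuclear IDR peaks. Next came rpl-12, a large subunit gene whose protein sits at the base of the stalk, with 130.4 in replicate 1 and 157.5 in replicate 2. Its summit was the closest to a 5' end, 33 bp upstream, and among these 10 it alone had the higher value in replicate 2.

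**Figure D1:**
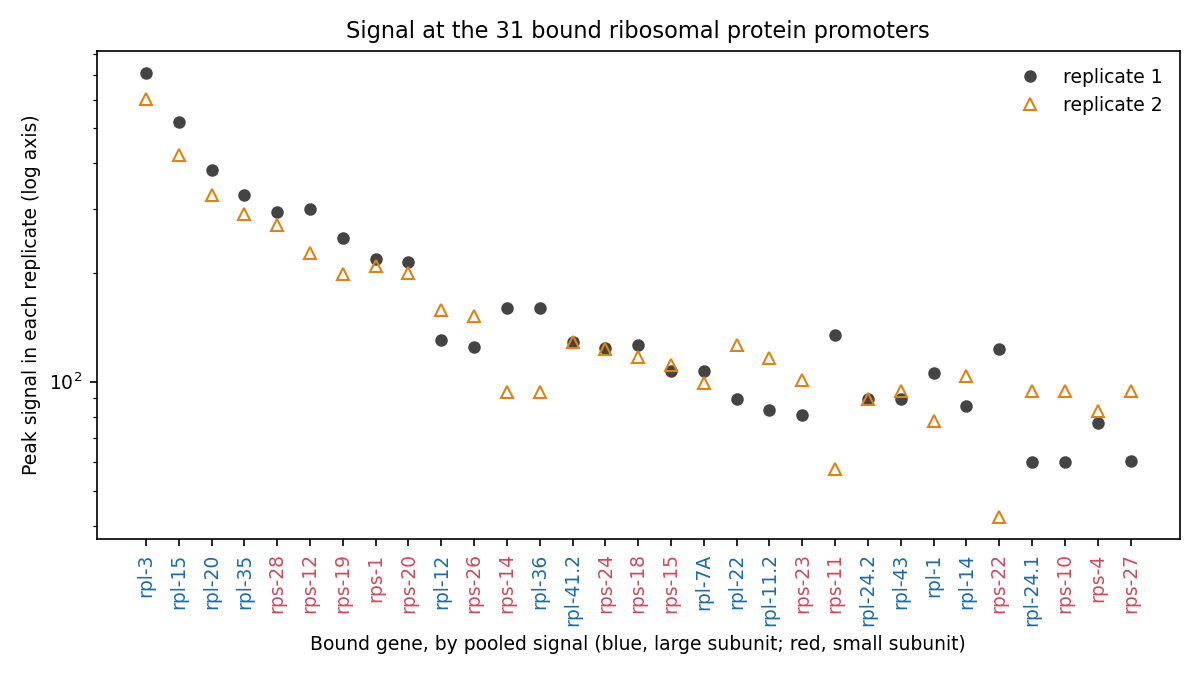
Peak signal in replicate 1 (filled circles) and replicate 2 (open triangles) at the 31 bound ribosomal protein genes, ordered by pooled signal on a log axis, with 1 summit per gene. The values fall from 710.8 and 604.0 at rpl-3 to between 60 and 95 at the weakest bound genes, and the replicates are farthest apart at rps-22.

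The remaining bound genes had pooled signals from 149.9 to 265.3, above the lowest IDR signal of 146.6. In the large subunit they were rpl-36, rpl-41.2, rpl-7A, rpl-22, rpl-11.2, rpl-24.2, rpl-43, rpl-1, rpl-14 and rpl-24.1, from 260.9 down to 153.9. Among them rpl-1 encodes the protein of the mobile stalk at the exit site, and rpl-11.2 a protein that contacts 5S ribosomal RNA. In the small subunit they were rps-26, rps-14, rps-24, rps-18, rps-15, rps-23, rps-11, rps-22, rps-10, rps-4 and rps-27. The protein of rps-23 lies at the decoding centre, and its summit had 80.6 in replicate 1 and 101.1 in replicate 2, 278 bp upstream. At rps-11 a stronger summit, 187.4 in the pool, lay 556 bp upstream and a weaker one, 155.3, lay 350 bp upstream. Both overlapped the same replicate 2 peak of 57.5, whose summit lay 372 bp upstream, nearer the weaker one.

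The replicates were most unequal at rps-22, with 122.9 in replicate 1 and 42.4 in replicate 2. Over the 30 member peaks the log2 ratio of replicate 2 to replicate 1 had a median of -0.08 and an SD of 0.50, against -0.19 and 0.46 over 1418 matched nuclear IDR peaks. Replicate 1 was the higher at 18 of the 30 member peaks, or 60%, and at 69.2% of all matched peaks. Across the 30 peaks, which share both libraries, Pearson's r between replicates was 0.845 and Spearman's rho 0.723. The same values across all 1418 were 0.815 and 0.684. Summits of the 2 replicates lay a median of 11.5 bp apart at member peaks and 22 bp apart over all matched peaks. When each replicate's strongest peaks were taken alone, in the number of the IDR list, 28 genes were bound in replicate 1 and 31 in replicate 2. The shares of all protein-coding genes bound were then 4.56% and 4.45%. Of the 31 bound genes, 24 were found in both. The genes rps-11 and rps-22 were found in replicate 1 only, and rpl-24.1, rps-10, rps-23, rps-27 and rps-4 in replicate 2 only. The counts also include genes not bound in the IDR list, rpl-32 and rpl-9 in replicate 1 and rpl-33 and rpl-6 in replicate 2.

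Weaker peaks reached most of the other genes. A peak of the pooled relaxed list, which holds 29980 nuclear peaks and background regions, had its summit in the window of 73 of the 81 genes, or 90.1% with an interval of 81.5 to 95.6%, against 38.3% of all protein-coding genes. It was 44 of 50 in the large and 29 of 31 in the small subunit. Among genes with such a peak, 31 of 73 ribosomal protein genes were bound, or 42.5%, against 12.2% of all protein-coding genes, 936 of 7650. The 42 unbound genes with a relaxed peak had a median pooled signal of 90.6, with a range of 42.5 to 146.5. The other protein-coding genes with a relaxed peak, bound ones included, had a median of 69.9.

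Several ribosomal protein genes had pooled signals close to the lowest IDR signal of 146.6. The weakest bound genes were rps-4 at 152.8 and rps-27 at 149.9. The strongest unbound genes were rpl-32 at 146.5, rpl-7 at 146.3, rpl-6 at 145.1, rpl-9 at 144.9 and rpl-33 at 143.2. The replicate peaks that overlapped the pooled rpl-32 peak had 84.7 in replicate 1 and 64.0 in replicate 2, and those at rpl-9 had 85.6 and 52.1. At rpl-33 they had 69.6 and 76.4. These values lie within the range of the bound genes in each replicate. At rpl-6 the overlapping peaks had 56.2 and 85.4, with summits 406 and 303 bp upstream, and at rpl-7 they had 35.7 and 58.2. The replicate 1 values of the overlapping peaks at these 2 genes lie below the lowest of a bound gene, 60.2. Another replicate 1 peak in the rpl-7 window, 452 bp upstream, had 73.4, which is above that value.

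The proteins of rla-1 and rla-2 form the flexible arms of the stalk, and that of rla-0 anchors them to the large subunit. Their pooled signals were 80.3 at rla-1, 49.0 at rla-0 and 42.5 at rla-2, and none of the 3 was bound. The 5 weakest relaxed peaks were those of rla-2, rps-17 at 43.0, rpl-10 at 44.4, rla-0 and rpl-2 at 51.6, close to the lowest signal in the pooled list, 41.1. No pooled peak lay in the window of 8 genes, rpl-16, rpl-18, rpl-19, rpl-30, rpl-37, rpl-42, rps-2 and rps-6. Of these, rpl-19, rpl-37 and rpl-42 had none in any of the lists. At rps-2 a peak of 54.2 was present in replicate 2 alone, and at rpl-18 a peak of 40.8 in replicate 1 alone.

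**Figure D2:**
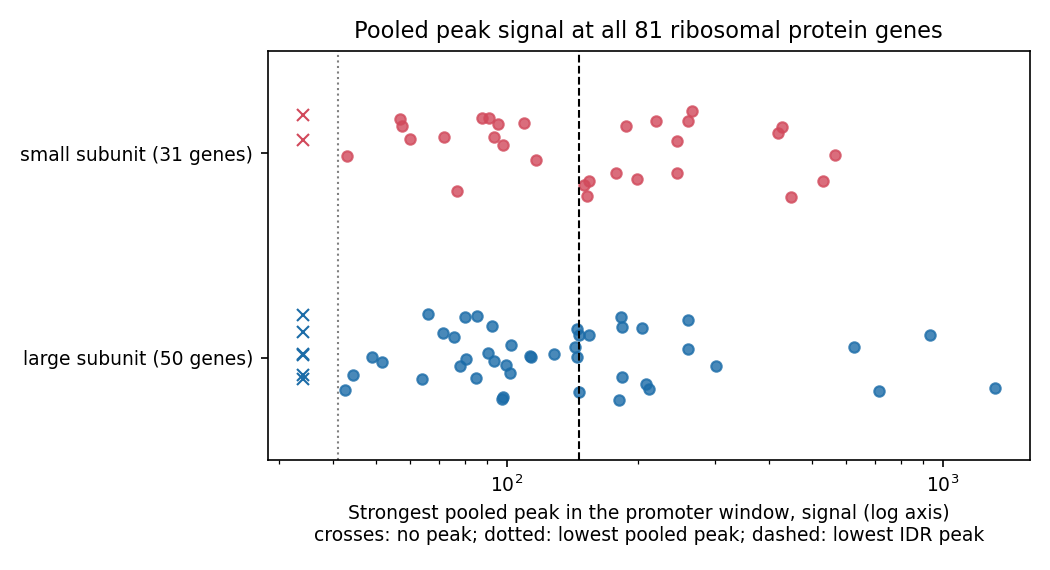
Strongest pooled peak in the promoter window of each of the 81 genes on a log axis, with points for genes with a peak and crosses for the 8 with none; vertical scatter only separates points. The 31 bound genes lie right of the dashed line at 146.6, and 5 large subunit genes sit just left of it.

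A summit just beyond the window was found at 2 genes. At rpl-27 an IDR summit of 368.4 lay 741 bp downstream of the 5' end, in the windows of egl-30 and C53H9.4. At rpl-41.1 it lay 830 bp downstream and was the summit of its neighbour rpl-41.2, 272 bp upstream of that gene, with 128.7 in replicate 1 and 129.0 in replicate 2. Neither rpl-27 nor rpl-41.1 was counted as bound, and their own pooled peaks stood at 75.8 and 92.2.

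For the paralogs rpl-11.1 and rpl-11.2 the pooled signals were 99.4 and 204.4, and rpl-11.1 was not bound. The rpl-11.2 peak had 83.3 in replicate 1 and 116.0 in replicate 2, and that of rpl-11.1 had 29.4 and 70.9, so the ranges of this pair did not overlap. Neither rpl-25.1 at 80.5 nor rpl-25.2 at 66.0 was bound, and their replicate peaks overlapped in value, with 54.8 and 28.5 at rpl-25.1 and 30.7 and 42.1 at rpl-25.2. Both rpl-24.1 and rpl-24.2 were bound, and the values of rpl-24.2, 89.6 and 89.5, fell between those of rpl-24.1, 60.2 and 94.4. The gene rpl-24.2 is counted with the large subunit by its name, but its human counterpart RSL24D1 is a ribosome assembly factor, and without it 30 genes were bound.

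The summits of bound genes lay upstream of the annotated 5' end. Over the 31 bound genes, taking the strongest summit of each, the median was 287 bp upstream, with quartiles of 257.5 and 394.5 and a range of 33 to 729. The large and small subunit medians were 287 and 296 bp. No summit of a bound gene lay downstream of the 5' end. Among the other 905 bound protein-coding genes the median was 236 bp, with quartiles of 131 and 483, and 82 had their summit downstream. From 200 to 400 bp upstream lay 17 of 31 summits, or 54.8%, against 28.7% for the other bound genes. This band encloses both quartiles of the bound ribosomal protein genes, so their share is in part set by its choice, and the difference was not tested. The weaker peaks of unbound ribosomal protein genes had the same median, 287 bp. Of these, 20 of 42, or 47.6%, fell in the band, against 17.0% of the relaxed peaks of other unbound genes, and 8 lay downstream, or 19.0%, against 29.4%.

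**Figure D3:**
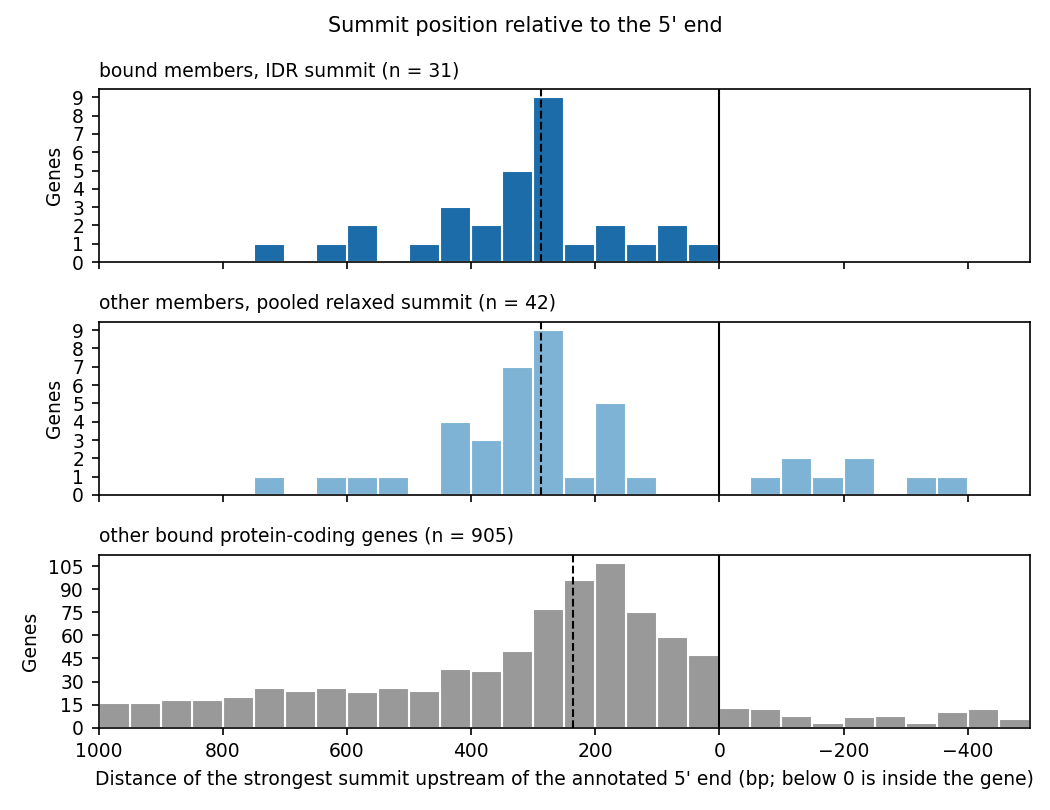
Number of genes by distance of the strongest summit from the annotated 5' end in 50 bp bins, with the gene to the right of 0; the dashed line is the median. Bound members and weaker members share a median of 287 bp upstream, and the 905 other bound genes centre at 236 bp with a longer upstream tail.

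Most bound ribosomal protein genes shared their summit with another gene. The summit lay in the window of another protein-coding gene for 22 of 31, or 71.0%, and for 50.7% of the other bound genes. It was 9 of 15 in the large and 13 of 16 in the small subunit. In 20 of the 22 the partner was divergent, with its 5' end on the other strand and on the other side of the summit. In 13 of the 22 the partner's 5' end was the nearer. Partners included ifet-1 at rps-1, which encodes a translational repressor, lin-54 at rpl-12, a DNA-binding subunit of the DREAM complex, ify-1 at rpl-22, the securin that restrains separase, and hsr-9 at rps-19, a homologue of human 53BP1. The others were K11H12.8, Y17G9B.5, ska-3, ekl-4, tmem-107, F36A2.9, set-21, dpm-3, Y48B6A.1, Y71F9AL.9, polh-1 and picd-1. The summit of rps-14 and rpl-36 also lay in the window of ndab-2. At rps-18 the neighbour sec-61.A, which encodes the channel of the translocon, is on the other strand, but the summit lay 172 bp inside that gene and not between the 5' ends. At rps-28 the partner Y41D4B.4 was not divergent.

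In 3 divergent pairs both genes encode ribosomal proteins. Between rps-14 and rpl-36, with 5' ends 663 bp apart, a peak of 159.9 in replicate 1 and 93.3 in replicate 2 lay 262 bp from rps-14 and 401 bp from rpl-36. Between rps-10 and rpl-24.1, 610 bp apart, a peak of 60.2 and 94.4 lay 339 and 271 bp upstream, with the snoRNA gene D1007.20 within 500 bp. Between rpl-39 and rps-30, 499 bp apart, a pooled peak of 98.1 lay below the IDR list. The rps-14 and rpl-36 peak was the higher in replicate 1 and the rps-10 and rpl-24.1 peak in replicate 2, and a shared peak measures the region and not either gene alone.

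By arrangement, 21 of 48 genes with a divergent coding neighbour within 1000 bp were bound, or 43.8%, against 11.3% of all protein-coding genes so placed. Another 22 genes had their nearest upstream neighbour on the same strand more than 500 bp away or divergent more than 1000 bp away, with a median gap of 721.5 bp. Of these, 9 were bound, or 40.9%, against 3.4% of all genes so placed, whose median gap was larger, 2256 bp. None of the 9 genes with a same-strand neighbour within 500 bp upstream was bound, against 3.11% of all genes so placed, and at that share a count of 0 of 9 is near the background. These 9 were rps-2, rps-7, rps-16, rps-17, rpl-16, rpl-19, rpl-25.1, rpl-27 and rla-1. Their pooled peaks reached at most 95.6, at rps-7, and rps-2, rpl-16 and rpl-19 had none. Of 2 genes overlapped at the 5' end by another gene, rpl-24.2 was bound and rpl-37 was not. Within the divergent class, 12 of 19 small and 9 of 29 large subunit genes were bound.

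**Figure D4:**
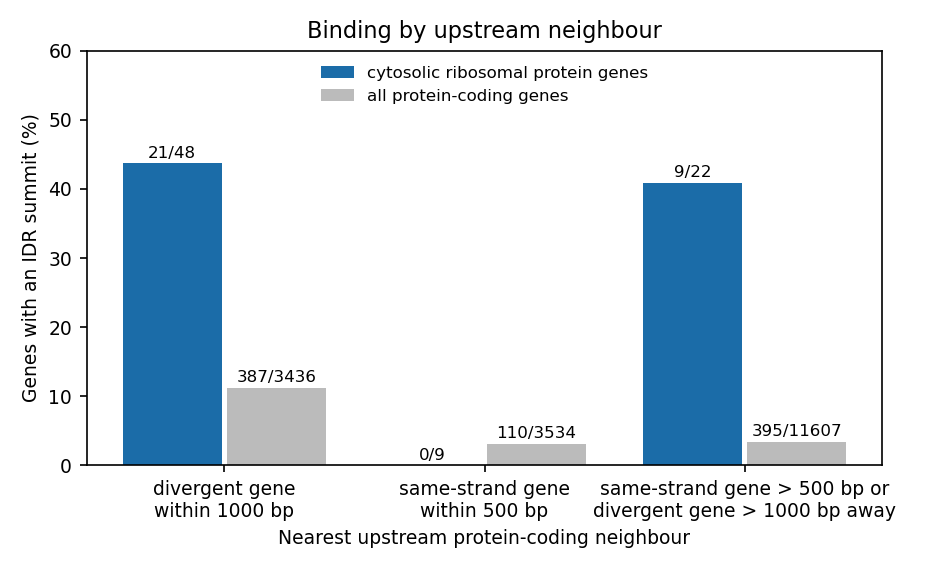
Share of genes with an IDR summit by their upstream neighbour, for cytosolic ribosomal protein genes (blue) and all protein-coding genes (grey), with counts above the bars. Ribosomal protein genes reach 43.8% with a divergent and 40.9% with a neighbour beyond these limits, and 0 of 9 with a close same-strand neighbour.

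A small RNA gene lay within 500 bp of 4 of the 30 member peaks. For the other nuclear IDR peaks it was 337 of 1393, a larger share than the 13.3% here, and the difference was not tested. The genes were F54E7.10 at rps-12, F39B2.14 at rps-26, Y24D9A.9 at rpl-7A and D1007.20 between rpl-24.1 and rps-10. Without such peaks 26 genes were bound, against 4.11% of all protein-coding genes. By chromosome, 10 of 25 were bound on I, 2 of 10 on II, 7 of 18 on III, 10 of 18 on IV, 1 of 8 on V and 1 of 2 on X. The shares of all protein-coding genes bound on these chromosomes, in the same order, were 6.91%, 4.20%, 6.70%, 4.42%, 2.50% and 5.31%.

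The bases under the member summits were richer in G and C than their surroundings. Within 50 bp of the summit the median GC content was 50%, against 31.7% in flanks 200 to 300 bp away. Other nuclear IDR summits had a median of 50.5%, so this was shared with the rest of the list. The relaxed summits of unbound members had 45.5%.

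The first 4 of the words above, each of 6 bases, were those that most exceeded their flanks within 50 bp of the member summits, and were chosen from those windows after their values were seen. Of 30 windows, 11 held ACCGTA, while 10 had CGTAGC, another 10 had ACACTC and 9 had CGCTAC. At least 1 of the 4 was in 19 of 30 windows, or 63.3%, and in 5% of the flanks, which the choice of words fixes. At the other nuclear IDR summits the shares of the 4 words, from ACCGTA to CGCTAC, were 3.16%, 2.37%, 9.98% and 3.37%. Of those summits, 16.9% held at least 1, and 1.87% held 2 or more, against 46.7% of member summits. At the 660 other IDR summits in promoters these shares were 19.1% and 2.73%. The member shares are in part set by the choice of words, and a single stretch such as CGTAGCG counts as 2 words. Among the 10 strongest member peaks 7 held a word, and among the other 20 it was 12. The peaks at rpl-35, rps-28 and rps-12, whose sequences are printed above, held none.

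In the 500 bp upstream of the 5' end, ACCGTA was found in 45.2% of bound and 44% of unbound ribosomal protein genes, and in 13.9% of all protein-coding genes. CGTAGC was found in 41.9% of bound and 4% of unbound genes, and in 4.96% of all protein-coding genes. ACACTC stood at 41.9%, 24% and 15.7%, and CGCTAC at 35.5%, 12% and 5.55%, in the same order. GGCCTAA, a word read by eye in the printed stretches, was present in 32.3% of bound and 26% of unbound genes and in 2.93% of all protein-coding genes. It lay within 50 bp of only 2 of the 30 summits, those of rpl-43 and rps-4. ACCGTA and GGCCTAA were therefore about as frequent at unbound as at bound ribosomal protein genes. The words were chosen from bound windows, so their shares at bound genes are in part set by that choice, and the differences from unbound genes were not tested. A match describes the sequence and does not identify a binding site.

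**Figure D5:**
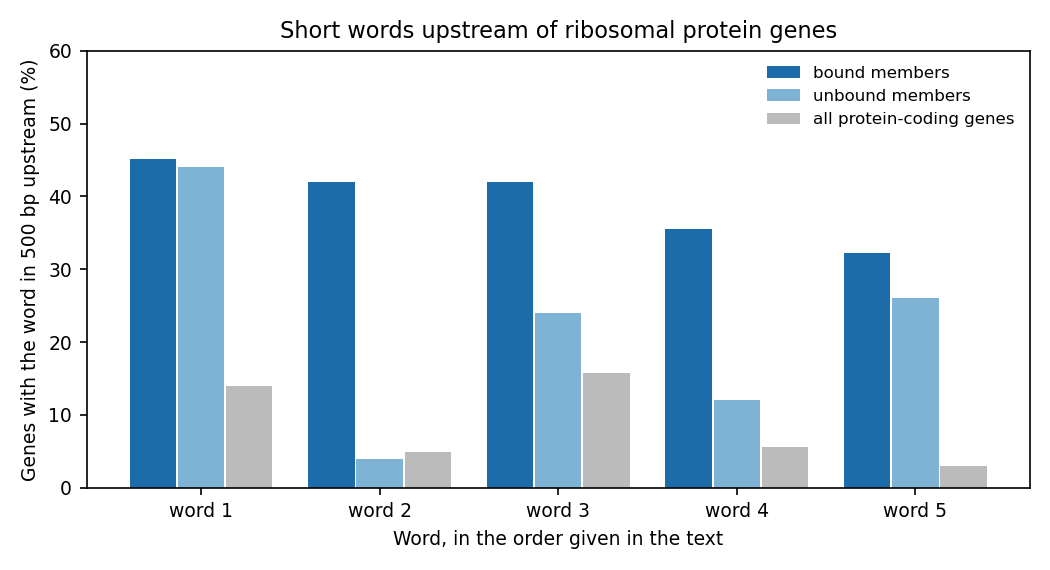
Share of genes that hold each word on either strand in the 500 bp upstream of the annotated 5' end, for 31 bound members, 50 unbound members and all protein-coding genes; words 1 to 5 are numbered as they are introduced with the sequences, from ACCGTA to GGCCTAA. Words 1 and 5 are about as frequent at unbound as at bound members, while word 2 stands at 41.9% and 4%.

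The words that mark the rest of the IDR list were counted in the same windows. The 5 words of 7 bases most enriched over flanks at other IDR summits away from small RNA genes came from repeats of CT or CA, apart from the word GAGACGC. Of the 30 member windows, 0 held CTCTCTC, while 1 held the overlapping word AGAGAGA. The word CACACAC was in 3 and its shifted form ACACACA in 1, and 2 windows held GAGACGC. The shares of CACACAC and of the word GAGACGC, 10% and 6.67%, were near the 10.3% and 7.25% of the other nuclear IDR summits. The other 3 of these words were in 11.1 to 11.9% of those summits, and in 8.94 to 9.85% of those in promoters. The 5 words were chosen at the other summits, so their shares there are in part set by that choice, and no difference was tested. Among words set by name, the TATA word TATAAA was in 0 of the 30 windows, and GAGAGA was in 5. The E-box word CACGTG was in 1 window, the GC-box word GGGCGG in 3 windows, and a run of TTTTTTT in 2 windows. At the other nuclear IDR summits the shares of these words, in the same order, were 3.66%, 21.5%, 1.87%, 9.69% and 7.90%.

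The other genes of the pathway were counted the same way. Of 3 ribosome components under other names, ubl-1 and ubq-2, which encode ribosomal proteins fused to ubiquitin or a ubiquitin-like domain, had relaxed peaks of 126.9 and 87.1, and rack-1, a scaffold protein on the small subunit, had none. None of the 3 was bound. Of 40 ribosome assembly gene names listed for this count, 33 were found in the annotation. Of these 33 genes, 3 were bound, or 9.09% with an interval of 1.92 to 24.3%. These were pro-1 at 198.9, nol-10 at 165.7 and rbd-1 at 154.5. A relaxed peak was present at 27 of the 33, or 81.8%. Of 70 mitochondrial ribosomal protein genes, 8 were bound, or 11.4% with an interval of 5.07 to 21.3%, with a median summit 422.5 bp upstream, and 48 of 70, or 68.6%, had a relaxed peak. Of all protein-coding genes 4.69% were bound and 38.3% had a relaxed peak, and the 4.69% lies inside the interval of the assembly genes and just below that of the mitochondrial ones. The interval for the cytosolic genes, from 27.7%, lies above those of both lists, and the differences were not tested.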

How the data were processed

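The authors sequenced anti-GFP immunoprecipitates of 2 biological replicates, which form 1 group, per the labels. The antibody field names M03D4.4 and the descriptions name anti-GFP, which is followed here. Peak lists were deposited on 2 builds, and those on ce11 were used. Relaxed lists of 30000 peaks were called with a control for each replicate and for the pool, and the IDR list was derived from them, per the file headers. The peak signal, the −log10 q-value and the summit offset are the authors' deposited values, and the q-value was not needed here. Not given in the sources used here are the aligner, the caller, the IDR threshold and the signal scaling. No read counts are held, so depth is unknown.

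Genes came from Ensembl release 115 (WBcel235). The 1423 nuclear IDR peaks were compared with the 5' end of each gene. Replicate peaks were matched where the overlap covered at least 50% of either peak. Words were counted on both strands. Each bound gene was named, along with the 5 strongest and 5 weakest other members, those with no relaxed peak and those just outside the window. Intervals are exact Clopper-Pearson intervals at 95% and cover counting error only. No test over samples was possible with 1 group. The gene assignment and word counts were tested on simulated data. Members and lists were chosen with earlier results of these data known. Alternatives tried were each replicate alone, the strongest IDR peaks, the strongest pooled peaks, a shorter window, the nearest 5' end only, any transcript's 5' end, no peaks near small RNA genes, and no rpl-24.2. Tables were made in pandas 2.3.3 and NumPy 2.4.6 under Python 3.11.15, intervals in SciPy 1.17.1 and plots in Matplotlib 3.10.9.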

Additional observations from a re-analysis of the deposited data

How the results depend on the processing

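Each result was recomputed with 1 choice changed at a time. Of the 45 alternatives, 38 stayed within 1.5 times the main count or within 9.55 bp of the main distance, and 7 moved. The 9.55 bp is the SD of the median distance over the 2 settings that leave out a replicate, so it does not judge those settings independently. The strongest pooled peaks, in the number of the IDR list, returned the main value for every result. They hold 1416 of the 1423 nuclear IDR peaks, so this outcome was fixed by the lists and is no test. When a summit was given only to the gene with the nearest 5' end, 18 genes were bound, 10 in the large and 8 in the small subunit. The share of all protein-coding genes was then 3.46%. With only the upper part of the IDR list by signal, 19 genes were bound, 9 in the large and 10 in the small subunit, against 2.59% of all protein-coding genes. The median summit distance, negative upstream, was -303 bp over bound genes that share their summit with no other gene, an alternative chosen after seeing the data. Leaving out a replicate gave medians from -300.5 to -287 bp and 28 to 31 bound genes, against 4.45 to 4.56% of all protein-coding genes. Of the bound genes, 16 to 17 were in the large subunit, 12 to 14 in the small subunit, and 19 to 22 shared their summit. No direction reversed. No paired analysis was possible because the 2 replicates form 1 group. Depth cannot be read from these lists, so a gene without a peak was not detected at the lists' own limits.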
